A study of Homo sapiens with 27 samples.

Results

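The comparison set MDA-MB-231 cells treated with 5SGlcNAc for 48 h against the same cells treated with Thiamet-G for 48 h, and used 6 of the 27 arrays of the series. Its members were the 3 arrays labelled as 5SGlcNAc at 48 h and the 3 labelled as Thiamet-G at 48 h. MDA-MB-231 is an established human line from a triple-negative, mesenchymal breast cancer, grown here in DMEM with foetal bovine serum. 5SGlcNAc was given at 50 µM and Thiamet-G at 25 µM, so that both the agent and its concentration differ between the groups. The 3 arrays of vehicle (DMSO) at 48 h did not enter the comparison and served only to place the levels of the inhibitor groups. The remaining arrays were a course of 0, 2, 4, 6, 8 and 24 h with 1 array for each of DMSO, 5SGlcNAc and Thiamet-G at each time. Nothing in the labels says that the replicates were separate cultures, so the p-values measure the spread between these arrays, which may be technical.

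O-GlcNAc is a single sugar that O-GlcNAc transferase (OGT) attaches to serine and threonine residues of nuclear and cytosolic proteins and that O-GlcNAcase (OGA) removes. 5SGlcNAc is converted in the cell to an analogue of the sugar donor that inhibits OGT and lowers O-GlcNAc, whereas Thiamet-G inhibits OGA and raises it, so the comparison places low against high O-GlcNAc. By its title the study concerns KEAP1, the adaptor that sends the transcription factor NRF2 (gene NFE2L2) for degradation. NRF2 binds antioxidant response elements and drives genes of glutathione, thioredoxin, quinone and haem metabolism. The question asked here is which transcripts differ between the inhibitor arms, and where the vehicle level of those transcripts lies. O-GlcNAc on proteins was not measured on these arrays.

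Values are log2 expression levels after robust multi-array averaging (RMA), and a difference is always 5SGlcNAc minus Thiamet-G on that scale. Across the 9 arrays of 48 h the medians of all probe sets were 7.68 to 7.76 and the correlations between arrays 0.9967 to 0.9988. The 11 markers listed for this line were above the level of the median gene on each of the 9 arrays, where the median gene read 8.35 to 8.45. Vimentin (VIM) read 14.94 to 15.02. ESR1 and PGR, the oestrogen and progesterone receptors that triple-negative cells lack, stayed below the level of the median gene, at 7.01 to 7.28 and at 3.78 to 4.14. Both belong to a list of 18 luminal markers, of which 9 were above the median gene on every array and 8 below it. The 9 haematopoietic and the 8 endothelial markers measured were all below the median gene on every array. A lower level in a bulk sample cannot tell fewer expressing cells from less RNA per cell.

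Of 11963 genes tested, 1070 (8.94%) passed limma's moderated test at an adjusted p of 0.05. Of these, 498 (4.16% of the genes tested) were higher with 5SGlcNAc and 572 (4.78%) were lower. Most differences were small: the median size among the 1070 was 0.31, 89 exceeded 1.5-fold and 14 exceeded 2-fold. Among those 89, 25 were higher with 5SGlcNAc and 64 were lower, and among the 14 the counts were 5 and 9. In a separate fit of all 9 arrays of 48 h, 1225 genes (10.2%) passed with 5SGlcNAc against DMSO. With Thiamet-G against DMSO, 417 (3.49%) passed. That 9-array fit called 1634 genes in the direct comparison, so its shares are not to be set against the 8.94% from 6 arrays. The count of the direct comparison differed with the array left out. It was 290, 491 and 391 without 5SGlcNAc replicate 1, 2 and 3, 415 and 444 without Thiamet-G replicate 1 and 3, and 1339 without Thiamet-G replicate 2. Of 237 genes described by name under the rule given with the methods, 221 passed the test, and 97 of those passed in all 6 fits that left out an array.

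**Figure D1:**
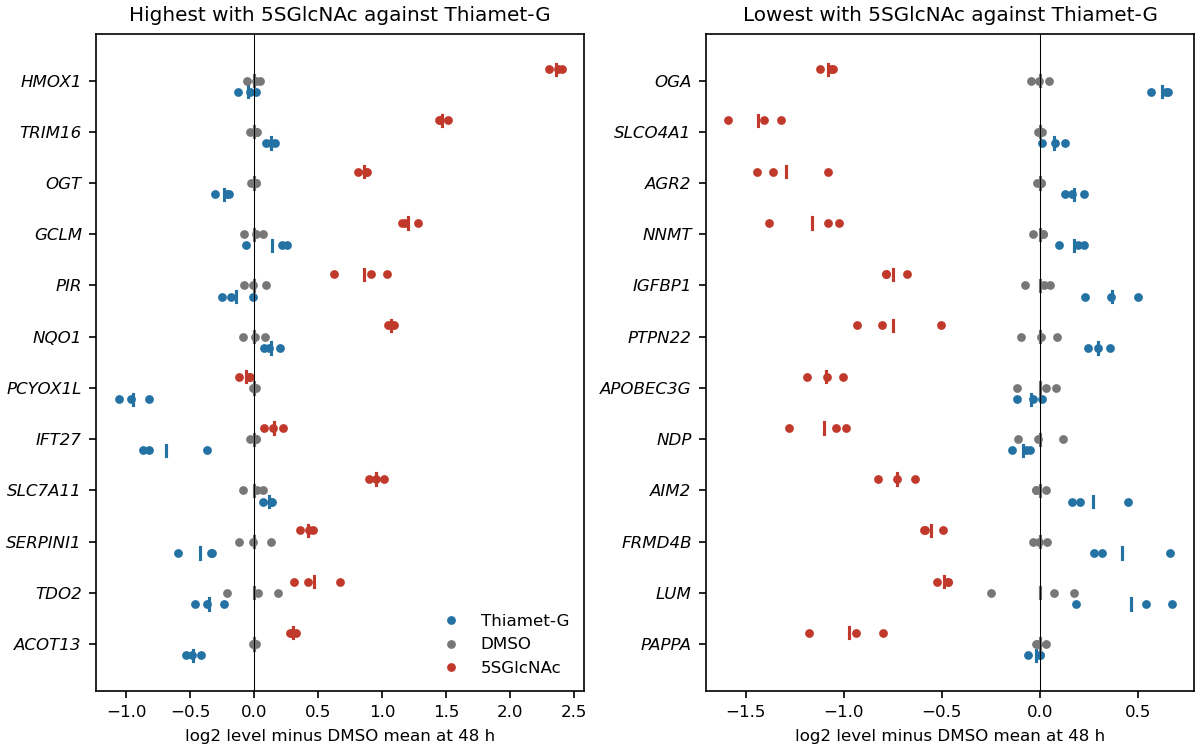
Log2 level of each array at 48 h minus the mean of the 3 DMSO arrays (x axis) for the 12 genes highest and the 12 lowest with 5SGlcNAc against Thiamet-G (rows); points are arrays, short bars are group means. HMOX1 stands apart through its 5SGlcNAc arrays alone, PCYOX1L and IFT27 through their Thiamet-G arrays, and OGA lies on opposite sides of DMSO in the inhibitor arms.

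Of the transcripts of the cycling enzymes, OGA was lower with 5SGlcNAc, while the probe sets of OGT disagreed in sign. OGA read 9.85, 9.91 and 9.92 with 5SGlcNAc and 11.62, 11.54 and 11.63 with Thiamet-G, against 10.93, 11.02 and 10.97 with DMSO. The groups did not overlap, the DMSO arrays lay between them, and OGA was 3.26-fold lower with 5SGlcNAc (difference −1.70 ± 0.05 SE, adjusted p = 1.33e-05). The brightest OGT probe set read 12.94, 12.87 and 12.93 with 5SGlcNAc and 11.84, 11.75 and 11.86 with Thiamet-G, with DMSO between at 12.07, 12.03 and 12.07. On that probe set OGT was 2.14-fold higher with 5SGlcNAc (1.10 ± 0.05 SE, adjusted p = 0.000204). The OGT probe sets disagreed, however: the others gave −1.87, −1.55, −0.07 and −0.06, and the mean of all of them gave −0.49, so no direction can be given for OGT as a whole. OGA had a second probe set at −1.55 and a dim one at −0.09. Among the 11 measured genes that cycle O-GlcNAc or make its sugar donor, the only other call was GPI, glucose-6-phosphate isomerase, at 0.22 (adjusted p = 0.0426), which was lost in each of the 6 fits without an array.

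The largest rise with 5SGlcNAc was that of HMOX1, a gene of the NRF2 response, and further genes of that response were called higher. For HMOX1, PIR, GCLM and NQO1 the DMSO arrays overlapped the Thiamet-G arrays, and for TRIM16, TXNRD1 and ME1 they lay below both arms. For GCLM and NQO1 that overlap rested on Thiamet-G replicate 2 alone, and Thiamet-G replicates 1 and 3 lay above every DMSO array. HMOX1, haem oxygenase 1, read 11.15, 11.05 and 11.12 with 5SGlcNAc, 8.71, 8.62 and 8.76 with Thiamet-G and 8.79, 8.76 and 8.69 with DMSO. Its 5.31-fold difference (95% interval of the log2 difference 2.28 to 2.54, adjusted p = 5.95e-06) thus came with overlapping Thiamet-G and DMSO arrays. PIR, pirin, an iron-binding nuclear protein, read 8.30, 8.01 and 8.43 against 7.38, 7.14 and 7.21, and was 2.00-fold higher (1.0 ± 0.11 SE, adjusted p = 0.00406). In the haem and iron list 5 of 21 measured genes were called higher and 3 lower. This count and those of the lists that follow are to be read against 4.16% called higher and 4.78% called lower among all genes. ALAS1, which starts haem synthesis, was higher by 0.36 (adjusted p = 0.0124), whereas PPOX, which acts near its end, was lower by a difference of −0.33 (adjusted p = 0.0113). PPOX was below DMSO in both arms: 8.15, 8.30 and 8.23 with 5SGlcNAc, 8.55, 8.55 and 8.58 with Thiamet-G, and 8.83, 8.86 and 8.79 with DMSO. The calls of ALAS1 and PPOX were lost without 5SGlcNAc replicate 1 (adjusted p = 0.0612 and 0.0514) and without 5SGlcNAc replicate 3 (0.0576 and 0.0513), and that of ALAS1 also without Thiamet-G replicate 1 (0.0542). Without an array the list held 3, 4, 3, 4, 5 and 5 calls higher and 0, 1, 1, 1, 3 and 1 lower, in the order of 5SGlcNAc replicates 1, 2 and 3 and Thiamet-G replicates 1, 2 and 3.

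In glutathione and cystine metabolism 6 of 21 genes were called higher and 2 lower. GCLM, the modifier subunit of the enzyme that starts glutathione synthesis, read 12.25, 12.37 and 12.27 with 5SGlcNAc, 11.31, 11.03 and 11.35 with Thiamet-G and 11.11, 11.16 and 11.01 with DMSO. It was 2.09-fold higher (1.07 ± 0.09 SE, adjusted p = 0.00166). SLC7A11, which imports cystine, read 12.10, 12.04 and 11.99 against 11.22, 11.23 and 11.16 and was 1.79-fold higher (adjusted p = 0.000649). GCLC, the catalytic partner of GCLM, was 1.47-fold higher, with 10.53, 10.59 and 10.53 against 10.06, 9.86 and 10.06. Without an array the list held between 3 and 6 calls higher and between 0 and 2 lower: 3 higher without 5SGlcNAc replicate 1 or 3 or Thiamet-G replicate 3.

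Among reductases, NQO1, the quinone reductase, read 12.97, 12.95 and 12.92 with 5SGlcNAc, 11.99, 11.95 and 12.08 with Thiamet-G and 11.79, 11.88 and 11.96 with DMSO. Its brightest probe set was 1.92-fold higher (adjusted p = 0.000426), and its other probe sets gave differences of 1.11 and 1.12. AKR1B10, an aldo-keto reductase, read 6.90, 6.94 and 6.97 against 6.24, 6.16 and 6.28, while DMSO spread from 5.94 to 6.5. It was 1.64-fold higher (adjusted p = 0.00111). TXNRD1, thioredoxin reductase 1, read 13.83, 13.80 and 13.76 against 13.24, 13.12 and 13.17, with DMSO below both at 13.09, 13.07 and 13.08, and was 1.54-fold higher (adjusted p = 0.00143). In the thioredoxin list 2 of 14 genes were called higher and 1 lower, TXNIP at −0.27, whose call was lost without 5SGlcNAc replicate 1. In the list of quinone, aldo-keto and carbonyl reductases 5 of 19 genes were higher and 3 lower. The calls higher were 3, 5 and 3 without 5SGlcNAc replicates 1, 2 and 3, and 2, 6 and 3 without Thiamet-G replicates 1, 2 and 3. The 3 lower were ALDH1A3 at −0.38, CBR3 at −0.24 and AKR7A2 at −0.18, and no call lower in this list was left without any 1 of 5SGlcNAc replicates 1, 2 and 3 or Thiamet-G replicate 1.

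NADPH supply was higher at 5 of 19 genes and lower at 0. ME1, malic enzyme, read 11.27, 11.22 and 11.30 against 10.78, 10.76 and 10.79, a difference of 0.49 ± 0.04 SE (adjusted p = 0.00192). The others were enzymes of the pentose phosphate pathway: TKT at 0.42, TALDO1 at 0.35, PGD at 0.34 and PGLS at 0.32, of which PGD lost its call in each fit without an array. The DMSO level was not placed alike among them. For ME1 it lay below both arms (10.72, 10.75 and 10.61), for TALDO1 between them (12.44, 12.42 and 12.49), and for PGLS at the 5SGlcNAc level, with 11.72, 11.71 and 11.76 in DMSO, 11.72, 11.75 and 11.77 with 5SGlcNAc and 11.42, 11.38 and 11.47 with Thiamet-G. Thus the NADPH supply genes called higher in this comparison included a member higher with 5SGlcNAc than with DMSO (ME1 0.57, adjusted p = 0.000186). They also included a member lower with Thiamet-G than with DMSO (PGLS −0.31, adjusted p = 0.00729).

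TRIM16, a ubiquitin ligase that acts with SQSTM1 in the stress response to protein aggregates, read 11.79, 11.86 and 11.80 with 5SGlcNAc, 10.48, 10.44 and 10.51 with Thiamet-G and 10.31, 10.36 and 10.37 with DMSO. It was 2.53-fold higher (1.34 ± 0.04 SE, adjusted p = 3.38e-05), and the DMSO arrays lay below both arms. SQSTM1, the autophagy receptor p62, was 1.39-fold higher (adjusted p = 0.00589), with 11.83, 11.91 and 11.95 against 11.52, 11.39 and 11.37, and its dimmer probe set gave 0.77. In the list of TRIM16, SQSTM1 and autophagy genes 5 of 28 were called higher and 0 lower, 23 were not called, and the median difference was 0.002. Of 13 measured regulators of NRF2, MAFG, a small MAF partner, was higher at 0.33 (adjusted p = 0.00751) and KEAP1 at 0.24 (adjusted p = 0.0244), and 11 were not called. KEAP1 read 11.59, 11.52 and 11.56 with 5SGlcNAc, 11.28, 11.37 and 11.30 with Thiamet-G and, between them, 11.48, 11.46 and 11.45 with DMSO. Its call was lost in 5 of the 6 fits without an array: the adjusted p was 0.105, 0.0586 and 0.0854 without 5SGlcNAc replicate 1, 2 and 3, and 0.0813 and 0.0794 without Thiamet-G replicate 1 and 3. NFE2L2 read 12.02, 11.95 and 11.97 against 12.11, 11.88 and 11.95, a difference of 0.00 with a 95% interval of −0.15 to 0.15.

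The 250 bases before the annotated start of each gene, taken from RefSeq (GRCh38.p14), were searched on both strands for the antioxidant response element TGACNNNGC. It was found in 11% of 27305 promoters, in 11.9% of the 9563 tested genes with a promoter in the table, in 12.6% of the genes called higher and in 10.4% of those called lower. In the redox and conjugation lists 6 of 31 genes called higher (19.4%) held it, and so did 4 of 14 interferon list genes called lower (28.6%). The motif overlaps the AP-1 motif where its free letters spell TGACTCA, as they do for ME1. HMOX1, NQO1 and TRIM16 were not among the 6 redox and conjugation genes with a match. The stretches of GCLM (chr1:93909431-93909680, minus strand), ME1 (chr6:83431052-83431301, minus strand) and TXNRD1 (chr12:104215529-104215778, plus strand) are shown because these genes, among the calls just described, held a match, as did PGD. Each is written 5′ to 3′ along the gene, with the match in capitals on either strand, 34, 137 and 99 bases from the start.
GCLM: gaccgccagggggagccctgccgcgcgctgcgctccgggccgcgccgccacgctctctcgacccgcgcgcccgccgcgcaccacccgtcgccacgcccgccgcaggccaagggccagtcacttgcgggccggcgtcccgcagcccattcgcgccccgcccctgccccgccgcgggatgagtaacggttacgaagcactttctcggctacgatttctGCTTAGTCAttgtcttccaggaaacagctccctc
ME1: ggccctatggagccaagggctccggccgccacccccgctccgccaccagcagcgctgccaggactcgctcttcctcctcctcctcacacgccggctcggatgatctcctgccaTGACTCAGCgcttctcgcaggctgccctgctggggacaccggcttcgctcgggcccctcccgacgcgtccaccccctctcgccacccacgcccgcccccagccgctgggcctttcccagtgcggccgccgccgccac
TXNRD1: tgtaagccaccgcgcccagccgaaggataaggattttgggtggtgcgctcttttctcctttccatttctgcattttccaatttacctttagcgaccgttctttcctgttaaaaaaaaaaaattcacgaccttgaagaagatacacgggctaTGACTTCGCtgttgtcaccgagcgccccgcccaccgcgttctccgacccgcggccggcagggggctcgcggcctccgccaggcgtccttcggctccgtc
These windows were not tested for binding, and the 11.9% among tested genes is the share to set them against.

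The position of the vehicle arrays was then described for every call. For 274 of the 1070 genes (25.6%) all 3 DMSO arrays lay between the inhibitor groups without touching either, against 360 of all 11963 genes (3.01%). DMSO can lie between only where the arms do not overlap, which holds for all 1070 calls and for 3500 of all genes, and 360 of those 3500 are 10.3%. Among calls the share was 26.9% for genes higher (134 of 498) and 24.5% for genes lower (140 of 572) with 5SGlcNAc. In the remaining calls the directions were placed differently. Among genes lower with 5SGlcNAc the DMSO arrays overlapped the Thiamet-G arrays only at 343 (60.0%) and the 5SGlcNAc arrays only at 22 (3.85%). Among genes higher with 5SGlcNAc the same counts were 169 (33.9%) and 153 (30.7%). DMSO lay above both groups at 76 calls and below both at 7. These counts depend on the scale: after centring each array on its median they were 327 between, 38 above and 24 below, and after quantile normalization 324, 49 and 17. Among all genes whose arms did not overlap, DMSO overlapped Thiamet-G only at 52.1% of the genes lower and 33.5% of those higher with 5SGlcNAc. It overlapped 5SGlcNAc only at 11.1% and 30.6%. The shares among calls are to be read beside these, and no test was made.

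**Figure D2:**
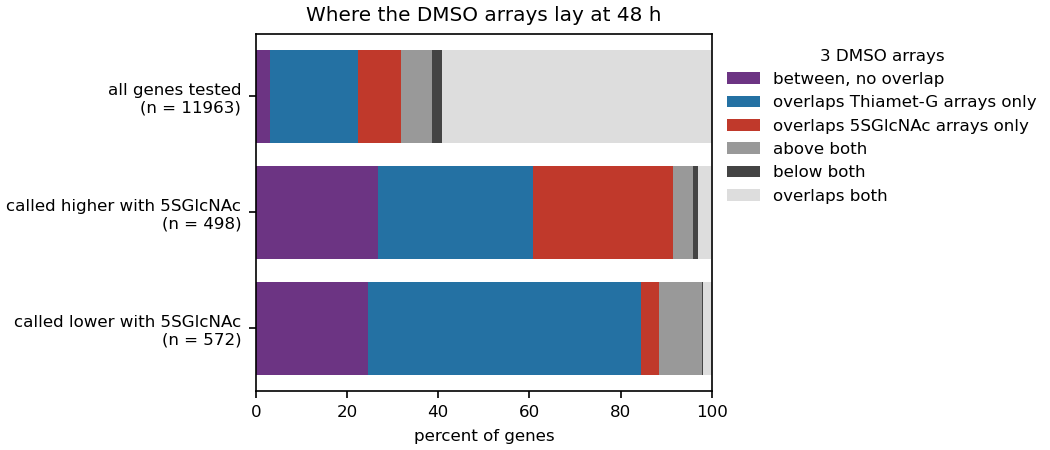
Percent of genes (x axis) by where the 3 DMSO arrays lay relative to the 3 5SGlcNAc and 3 Thiamet-G arrays at 48 h, for all 11963 genes, the 498 called higher and the 572 called lower with 5SGlcNAc. DMSO overlapped the Thiamet-G arrays only for 60.0% of the genes called lower and 33.9% of those called higher. Among all genes whose arms did not overlap, which are not drawn, these shares were 52.1% of the genes lower and 33.5% of those higher.

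Genes that moved oppositely around the vehicle were led by OGA. The next with DMSO between were ACOT13, SH3YL1, SERPINI1, TDO2 and CDKL3, higher with 5SGlcNAc, and IGFBP1, PTPN22, FRMD4B, LUM, HMGCS1 and IFIT1, lower with it. ACOT13, a mitochondrial acyl-CoA thioesterase, read 10.76, 10.74 and 10.79 with 5SGlcNAc, 10.46, 10.45 and 10.48 with DMSO and 9.93, 10.05 and 9.98 with Thiamet-G. Against DMSO the arms differed by 0.30 and −0.48 (adjusted p = 0.003 and 0.00199), and the direct difference was 1.71-fold (adjusted p = 0.000785). SH3YL1, an SH3-domain protein that binds membrane lipids, ran in the same order, at 8.99, 8.97 and 8.96, then 8.64, 8.68 and 8.71, then 8.24, 8.20 and 8.35. It was 1.64-fold higher with 5SGlcNAc (adjusted p = 0.00121). SERPINI1, neuroserpin, an inhibitor of tissue plasminogen activator, was 0.42 above DMSO with 5SGlcNAc and differed by −0.42 with Thiamet-G (adjusted p = 0.0143 and 0.0299). CDKL3, a kinase related to cyclin-dependent kinases, gave 0.34 and −0.29 (adjusted p = 0.00418 and 0.019). TDO2, which opens the ring of tryptophan, gave 0.46 and −0.36, of which only the former passed (adjusted p = 0.0362 and 0.14). TDO2 was dim, with means of 5.65 for 5SGlcNAc, 5.18 for DMSO and 4.83 for Thiamet-G, where the median gene read 8.35 to 8.45.

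In the other direction, IGFBP1, an insulin-like growth factor binding protein, read 10.54, 10.65 and 10.54 with 5SGlcNAc, 11.38, 11.35 and 11.25 with DMSO and 11.83, 11.56 and 11.69 with Thiamet-G. It was 2.17-fold lower with 5SGlcNAc than with Thiamet-G (adjusted p = 0.000947), and both arms differed from DMSO (−0.75 and 0.37, adjusted p = 0.00036 and 0.0263). FRMD4B, a scaffold protein of cell junctions, read 5.29, 5.28 and 5.38, then 5.87, 5.84 and 5.91 in DMSO, then 6.54, 6.15 and 6.19, and both arms differed from DMSO (−0.56 and 0.42, adjusted p = 0.00586 and 0.0407). Its dimmer probe sets gave −0.08 and 0.06. PTPN22, a tyrosine phosphatase best known from lymphocytes, read 5.92, 6.35 and 6.05 against 7.15, 7.10 and 7.21 and was 2.07-fold lower. Against DMSO its 5SGlcNAc arm passed (−0.75, adjusted p = 0.00213) and its Thiamet-G arm did not (0.30, adjusted p = 0.139), and its other probe sets gave −0.48 and 0.01. LUM, lumican, a matrix proteoglycan, HMGCS1, an enzyme of cholesterol synthesis, and IFIT1, an interferon-induced antiviral protein, differed directly by −0.95, −0.78 and −0.75. For these 3 genes the Thiamet-G arm missed the threshold against DMSO (adjusted p = 0.0966, 0.0695 and 0.0654). LUM was also below the median gene, with means of 5.76 for 5SGlcNAc, 6.25 for DMSO and 6.71 for Thiamet-G. These contrasts with DMSO share the DMSO arrays with each other and the inhibitor arrays with the direct comparison, so they are not independent of it.

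**Figure D3:**
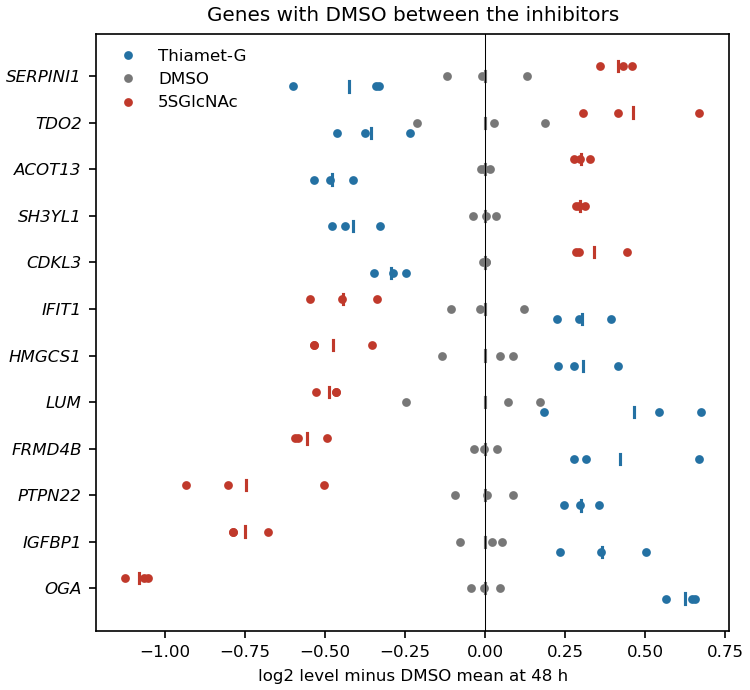
Log2 level of each array at 48 h minus the mean of the 3 DMSO arrays (x axis) for the 12 genes with DMSO between the inhibitor arms and the largest smaller distance to it; points are arrays, short bars are group means. For ACOT13 and SH3YL1 the spread within each group is small beside the distance between groups, whereas the DMSO arrays of LUM and TDO2 spread more widely.

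For another set the vehicle was nearer to the 5SGlcNAc arrays than to the Thiamet-G arrays. PCYOX1L, a relative of the prenylcysteine oxidase that recycles prenylated proteins, read 8.33, 8.32 and 8.24 with 5SGlcNAc, 8.35, 8.37 and 8.36 with DMSO and 7.54, 7.30 and 7.40 with Thiamet-G. It was 1.84-fold higher with 5SGlcNAc than with Thiamet-G (adjusted p = 0.00136), while 5SGlcNAc against DMSO differed by −0.06 (adjusted p = 0.545). RAD50, a subunit of the complex that senses DNA double-strand breaks, read 8.91, 8.93 and 9.05 against 8.49, 8.48 and 8.53, with DMSO at 9.0, 9.0 and 8.96. Its direct difference was 0.46 (adjusted p = 0.00399). PMVK, phosphomevalonate kinase of cholesterol synthesis, differed by 0.51 and SLC1A1, a glutamate and cysteine transporter, by 0.52 (adjusted p = 0.00318 and 0.0099). Against DMSO the Thiamet-G arm of PMVK differed by −0.44 and that of SLC1A1 by −0.48, whereas the 5SGlcNAc arms differed by 0.07 and 0.03 (adjusted p = 0.436 and 0.817). IFT27, a small GTPase of intraflagellar transport, read 7.66, 7.59 and 7.74 against 6.64, 7.14 and 6.69, a difference of 0.84 (adjusted p = 0.0113). Its call was lost without 5SGlcNAc replicate 1 or 3 (adjusted p = 0.059 and 0.0547) and without Thiamet-G replicate 3 (0.0541), and its other probe set gave 0.04.

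Some calls passed in neither contrast with DMSO although the arms differed from each other. By the rule for named genes these were DENND5B, TGFB2, ATP8A1, ZBTB10, PLEKHB1 and MILR1. ZBTB10, a zinc finger repressor, read 7.62, 7.40 and 7.53 with 5SGlcNAc, 7.78, 7.91 and 7.64 with DMSO and 8.11, 7.97 and 8.14 with Thiamet-G. Its direct difference was −0.56 ± 0.07 SE (adjusted p = 0.00665), and its arms gave −0.26 and 0.30 against DMSO (adjusted p = 0.0796 and 0.0889). PLEKHB1, a pleckstrin-homology protein, was higher at 0.56 and MILR1, an immunoglobulin-like receptor, lower at −0.55 (adjusted p = 0.00923 and 0.0062). TGFB2, a TGF-beta ligand, differed by −0.57 (adjusted p = 0.0146). TGFB2 lost its call without 5SGlcNAc replicate 1 or 3 and without Thiamet-G replicate 1 or 3, with adjusted p of 0.0745, 0.0581, 0.0566 and 0.0646. DENND5B (−0.62) and ATP8A1 (−0.56) lost theirs in the 5 fits without 5SGlcNAc replicate 1, 2 or 3 or Thiamet-G replicate 1 or 3, where their adjusted p ranged from 0.0745 to 0.147.

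Some cytokine and chemokine transcripts driven by NF-kB were lower with 5SGlcNAc. Of 26 measured, 8 were called lower, 1 higher and 17 were not called, with a median difference of −0.18 beside 0.02 over all genes. IL6 read 8.56, 8.68 and 8.56 with 5SGlcNAc, 9.42, 9.46 and 9.44 with Thiamet-G and 9.25, 9.21 and 9.15 with DMSO. It was 1.79-fold lower (−0.84 ± 0.05 SE, adjusted p = 0.000649), with DMSO between and both arms past the threshold against it (−0.60 and 0.24, adjusted p = 0.00015 and 0.031). The chemokine CXCL1 read 7.11, 7.11 and 6.96 against 7.88, 7.72 and 7.77, and CXCL2 read 7.38, 7.44 and 7.60 against 8.24, 8.14 and 8.21. They were 1.66-fold and 1.65-fold lower (adjusted p = 0.00192 and 0.00215), and the neutrophil chemoattractant CXCL8 was 1.44-fold lower (adjusted p = 0.00668). IL11, an IL6-family cytokine, went the other way, at 11.44, 11.41 and 11.59 against 11.03, 10.98 and 11.04, a difference of 0.46 (adjusted p = 0.00591). Without an array the calls lower were 4, 6 and 6 (5SGlcNAc replicates 1, 2 and 3) and 5, 7 and 5 (Thiamet-G replicates 1, 2 and 3).

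The kappa B site, searched on both strands as GGG, 2 free bases and TTTCC, was found in the same 250-base stretch of 1.73% of all promoters, 1.88% of tested genes, 2.89% of genes called lower and 1.63% of those called higher. Among the 8 NF-kB list genes called lower, 4 held it. CXCL1 (chr4:73869143-73869392, plus strand) and IL6 (chr7:22726950-22727199, plus strand) are shown with the match in capitals, 79 and 73 bases before the start.
CXCL1: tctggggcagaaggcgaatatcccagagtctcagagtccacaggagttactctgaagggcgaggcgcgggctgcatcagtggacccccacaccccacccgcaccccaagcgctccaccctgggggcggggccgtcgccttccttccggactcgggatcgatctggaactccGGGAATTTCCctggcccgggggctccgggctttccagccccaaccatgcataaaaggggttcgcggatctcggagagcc
IL6: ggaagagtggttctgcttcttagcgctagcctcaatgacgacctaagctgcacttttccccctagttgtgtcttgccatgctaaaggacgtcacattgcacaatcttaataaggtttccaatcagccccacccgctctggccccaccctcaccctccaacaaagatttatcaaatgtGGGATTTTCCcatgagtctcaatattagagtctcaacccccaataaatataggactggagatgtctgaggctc
The list was assembled from genes known to be driven by this factor, so the share in it is a description of the list.

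Interferon-induced genes that passed were all lower with 5SGlcNAc. Of 40 type I interferon genes, 19 were called lower and 0 higher with 5SGlcNAc, and the median difference was −0.22. IFIT1 read 9.86, 9.96 and 10.07 with 5SGlcNAc, 10.80, 10.70 and 10.63 with Thiamet-G and 10.39, 10.53 and 10.30 with DMSO, and was 1.68-fold lower (adjusted p = 0.00223). Its relatives IFIT2 and IFIT3 were 1.44-fold and 1.49-fold lower (adjusted p = 0.00189 and 0.00399). IFITM1, which blocks virus entry, read 9.68, 9.71 and 9.73 against 10.36, 10.40 and 10.27, with DMSO at 10.38, 10.33 and 10.44 among the Thiamet-G arrays. BST2, the tether that holds budding virus, was 1.33-fold lower (adjusted p = 0.0036). Without an array the calls lower were 8, 11 and 13 (5SGlcNAc replicates 1, 2 and 3) and 9, 20 and 8 (Thiamet-G replicates 1, 2 and 3), with 0 higher in each fit.

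Related immune genes lay on the same side. The cytidine deaminases APOBEC3G and APOBEC3B, which edit viral and genomic DNA, were the 2 calls among 4 measured. APOBEC3G read 6.22, 6.40 and 6.32 against 7.42, 7.37 and 7.29 and was 2.07-fold lower, although its other probe set gave 0.08. APOBEC3B read 9.19, 9.26 and 9.23 against 10.21, 9.96 and 9.94 and was 1.75-fold lower (adjusted p = 0.00228). AIM2, a sensor of cytosolic DNA, read 6.32, 6.23 and 6.13 against 7.16, 7.12 and 7.41, with DMSO between at 6.94, 6.99 and 6.94, and was 2.00-fold lower (adjusted p = 0.00192). CASP1, the protease of inflammasomes, was lower on each of its 5 probe sets, by differences of −0.63 on the brightest and −0.92, −1.42, −0.66 and −0.91 on the others. Of 19 genes of MHC class I and antigen presentation, 6 were called lower and 0 higher, and without an array this count fell to between 1 and 5, with 1 without 5SGlcNAc replicate 1 and 2 without 5SGlcNAc replicate 2 or Thiamet-G replicate 1 or 3. PSMB8, an immunoproteasome subunit, gave −0.40 (adjusted p = 0.00822).

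The interferon stimulated response element, searched on both strands as GAAA, 2 free bases and GAAA, was found in 3.07% of all promoters, 2.56% of tested genes, 5.56% of genes called lower and 2.10% of those called higher. Of the 14 interferon list genes called lower that had a promoter in the table, 9 held it. IFIT1 (chr10:89392373-89392622, plus strand) and IFIT3 (chr10:89327747-89327996, plus strand) each held a pair of matches, shown in capitals and read here on the opposite strand.
IFIT1: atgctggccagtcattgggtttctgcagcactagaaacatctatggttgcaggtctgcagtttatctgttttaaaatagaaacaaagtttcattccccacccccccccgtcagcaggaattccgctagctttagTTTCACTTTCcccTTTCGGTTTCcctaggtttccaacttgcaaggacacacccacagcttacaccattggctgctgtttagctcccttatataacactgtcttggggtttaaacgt
IFIT3: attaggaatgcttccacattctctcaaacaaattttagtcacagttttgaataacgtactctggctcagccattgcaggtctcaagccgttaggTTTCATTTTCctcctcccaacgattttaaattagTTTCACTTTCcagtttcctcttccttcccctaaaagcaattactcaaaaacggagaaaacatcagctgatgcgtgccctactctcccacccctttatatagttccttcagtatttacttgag
As for the kappa B site, the list was chosen for induction by interferon, and the share in it describes the list.

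Growth factor genes gave calls in both directions, depending on the list. Feedback genes that report ERK activity gave 8 calls lower and 0 higher of 16. SPRY1, which restrains receptor tyrosine kinase signalling, read 9.68, 9.61 and 9.81 against 10.44, 10.39 and 10.33 and was 1.61-fold lower (adjusted p = 0.00215). The ETS factor ETV1 was 1.64-fold lower and the ERK phosphatase DUSP4 1.40-fold lower (adjusted p = 0.00147 and 0.00189). The other ETV1 probe sets gave −0.35, −0.20, −0.20 and −0.26. Without an array the ERK calls were 3, 6 and 3 (5SGlcNAc replicates 1, 2 and 3) and 7, 7 and 6 (Thiamet-G replicates 1, 2 and 3). Of 14 EGF family ligands and receptors 3 were called higher (HBEGF at 0.35, BTC at 0.21 and EGFR at 0.19) and 2 lower (EREG at −0.44 and NRG1 at −0.40). Without 5SGlcNAc replicate 1 or 3 or Thiamet-G replicate 1 this list held no call, and without 5SGlcNAc replicate 2 or Thiamet-G replicate 3 it held 1. In the IGF axis 5 of 16 were lower and 0 higher, among them PAPPA, a protease that frees IGF from its binding proteins, at 6.68, 7.06 and 6.92 against 7.86, 7.86 and 7.8 with DMSO at 7.85, 7.89 and 7.84. PAPPA was 1.94-fold lower on its brighter probe set (−0.95, adjusted p = 0.00242) and gave −0.29 on the dimmer. The IGF calls numbered 2 without 5SGlcNAc replicate 1 or 3 and 3 without Thiamet-G replicate 1 or 3. NDP, norrin, a ligand of the Wnt receptor FZD4, read 5.15, 4.91 and 5.20 against 6.14, 6.12 and 6.05 and was 2.02-fold lower (adjusted p = 0.00139). HES1, a target of Notch, was 1.43-fold lower with DMSO between (adjusted p = 0.00303), and its other probe sets gave −0.51 and, on a dim set, 0.06.

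Secreted and matrix genes gave more calls lower than higher. Among 48 matrix proteases and inhibitors 12 were lower and 1 higher. PLAU, urokinase, read 12.18, 12.25 and 12.26 against 12.69, 12.81 and 12.84 (−0.55, adjusted p = 0.00269), and TIMP3, an inhibitor of metalloproteases, read 11.53, 11.67 and 11.65 against 12.19, 12.25 and 12.13 (−0.57, adjusted p = 0.00267). The call higher was SERPINE2, protease nexin 1, at 0.35. Both proteases and inhibitors of proteases were among the calls lower. Without an array the calls lower were 6, 8 and 8 (5SGlcNAc replicates 1, 2 and 3) and 5, 12 and 6 (Thiamet-G replicates 1, 2 and 3). Hypoxia-responsive genes, which respond to HIF and also to other stresses, gave 6 lower and 2 higher of 30. DDIT4, an inhibitor of mTORC1, read 10.18, 10.32 and 10.47 against 11.27, 11.11 and 11.14 and was 1.80-fold lower. VEGFA, the angiogenic factor, was 1.57-fold lower and LOX, which cross-links collagen, 1.52-fold lower, whereas ADM, adrenomedullin, was 1.39-fold higher at 12.27, 12.18 and 12.21 against 11.77, 11.70 and 11.77. The hypoxia calls lower stayed at 5 or 6 in all 6 fits without an array.

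Other large differences fell outside these groups. SLCO4A1, an organic anion transporter, read 9.89, 10.16 and 10.07 with 5SGlcNAc, 11.49, 11.56 and 11.61 with Thiamet-G and 11.48, 11.49 and 11.47 with DMSO, and was 2.85-fold lower. NNMT, which methylates nicotinamide, read 9.18, 9.48 and 9.54 against 10.76, 10.79 and 10.66, with DMSO just below the Thiamet-G arrays at 10.58, 10.58 and 10.53. It was 2.53-fold lower (adjusted p = 0.0012), and its second probe set gave −1.0. CDKN1A, the cell cycle inhibitor p21, was 1.46-fold higher (adjusted p = 0.00376), whereas DDB2, a DNA damage sensor that p53 also drives, was 1.64-fold lower (adjusted p = 0.00166). For CDKN1A the Thiamet-G arrays, at 10.68, 10.78 and 10.74, lay below DMSO at 11.17, 11.03 and 11.05, and the 5SGlcNAc arrays overlapped DMSO at 11.33, 11.17 and 11.34. The lysosomal protease CTSL was 1.35-fold higher and the lysosomal galactosidase GLA 1.40-fold higher (adjusted p = 0.00591 and 0.00166). Their lists gave calls in both directions. Of 22 lysosomal proteases and membrane proteins 3 were higher and 4 lower, and of 16 lysosomal glycan hydrolases 2 were higher and 1 lower. The calls lower included the proteases CTSS at −0.36, CTSZ at −0.32 and CTSB at −0.23, each of which was lost in 5 of the 6 fits without an array.

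Growth-related lists pointed in different directions. Of 41 ribosome biogenesis and MYC target genes 9 were higher and 0 lower, with a median of 0.11. BYSL and WDR3, which assemble the small ribosomal subunit, were each higher by 0.33 (adjusted p = 0.00816 and 0.00784). Of 51 mitosis genes 11 were lower and 1 higher, with a median of −0.13, and 39 of the 51 had arrays that did not overlap between the arms, beside 29.3% of all genes. KIF20A, a kinesin of cytokinesis, read 11.64, 11.59 and 11.60 against 11.95, 11.92 and 12 (−0.35, adjusted p = 0.00608). These counts differed with the array left out: the ribosome biogenesis calls were 2, 5, 3, 3, 9 and 4, and the mitosis calls lower 1, 1, 1, 2, 19 and 1, without 5SGlcNAc replicates 1, 2 and 3 and Thiamet-G replicates 1, 2 and 3. DNA replication gave 6 lower and 2 higher of 45. MCM7, a subunit of the replicative helicase, read 10.52, 10.53 and 10.59 against 11.21, 11.19 and 11.31, with DMSO at 11.27, 11.33 and 11.34, and was 1.61-fold lower (adjusted p = 0.00121). The replication calls lower were 2 without 5SGlcNAc replicate 1, 3 without 5SGlcNAc replicate 2 or Thiamet-G replicate 1 or 3, and 10 without Thiamet-G replicate 2.

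In cholesterol synthesis 6 of 22 genes were lower and 1, PMVK, was higher. HMGCS1, which makes the precursor of mevalonate, read 8.97, 8.97 and 9.15 against 9.92, 9.78 and 9.73 and was 1.72-fold lower (adjusted p = 0.00223). INSIG1, the sterol-responsive brake on SREBP processing, was lower by a difference of −0.53 (adjusted p = 0.00863). The calls lower were 2 without 5SGlcNAc replicate 1 or 2 or Thiamet-G replicate 3, 3 without 5SGlcNAc replicate 3 or Thiamet-G replicate 1, and 4 without Thiamet-G replicate 2. CPT1A, which carries fatty acids into mitochondria, was 1.3-fold higher (adjusted p = 0.00651), and the cholesterol exporter ABCA1 was 1.52-fold lower (adjusted p = 0.00644).

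**Figure D4:**
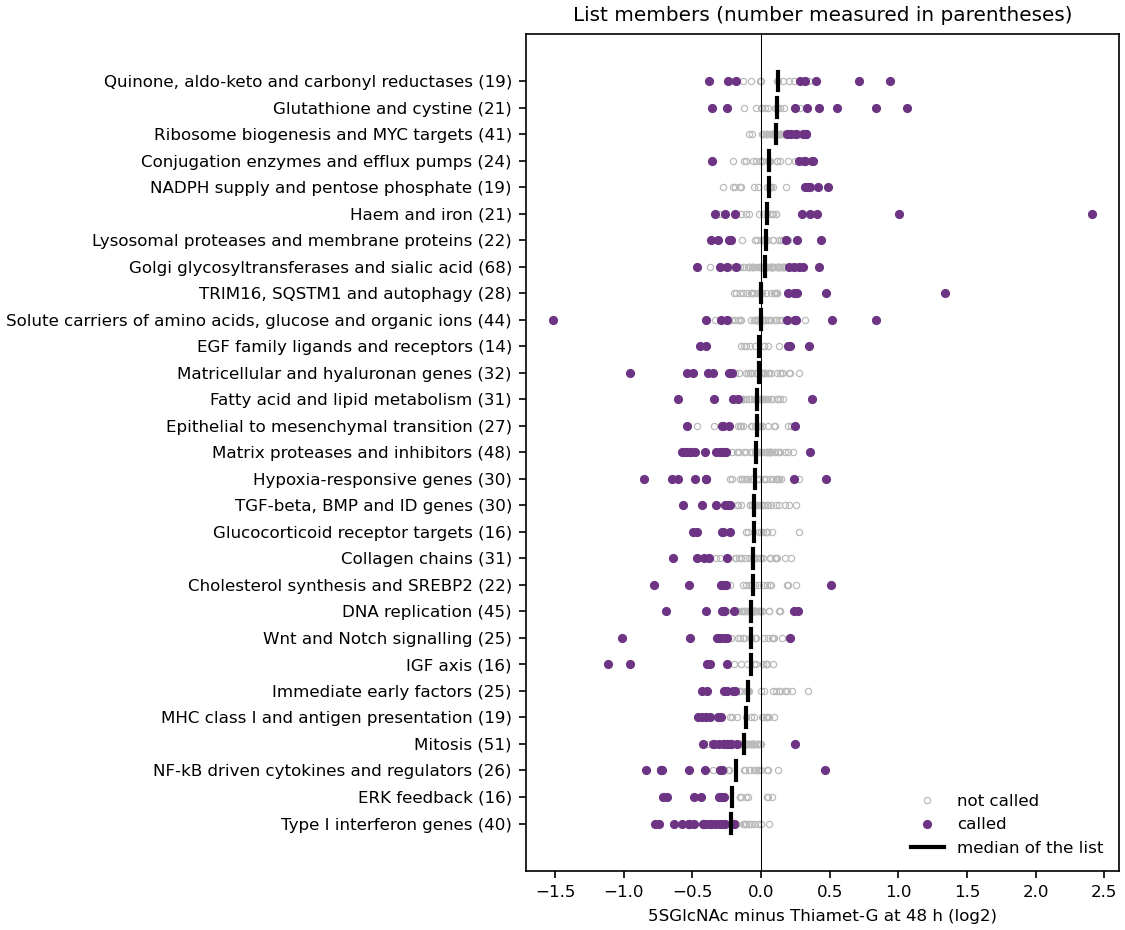
Difference, 5SGlcNAc minus Thiamet-G at 48 h on the log2 scale (x axis), of each measured member of the gene lists with at least 5 calls (rows, ordered by median); filled points passed an adjusted p of 0.05 and bars mark list medians. Medians run from −0.22 for type I interferon genes to 0.12 for quinone and carbonyl reductases, and most lists hold members on both sides of 0.

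Of the 57 lists described, 3 held no call: 50 cytosolic ribosomal proteins, 38 CLK kinases and SR splicing factors, and 31 chromatin regulators tied to OGT. Their medians were −0.03, −0.03 and −0.02, and the ribosomal proteins ranged from −0.12 to 0.05. Respiratory chain subunits gave 3 calls higher and 1 lower of 57, and glycolysis with the tricarboxylic acid cycle 3 higher and 0 lower of 33, beside 4.16% higher and 4.78% lower among all genes. None of these glycolysis calls was left in the fits without 5SGlcNAc replicate 1, 2 or 3 or Thiamet-G replicate 1 or 3, and 1 was left without Thiamet-G replicate 2.

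Markers of luminal epithelium were lower with 5SGlcNAc at 5 of 18 genes and higher at 0. AGR2, a disulphide isomerase of secretory epithelium, read 7.92, 7.84 and 8.20 against 9.51, 9.45 and 9.41, with DMSO at 9.29, 9.27 and 9.29, and was 2.77-fold lower. KRT19 was 1.38-fold lower (adjusted p = 0.00399). The 18 log2 levels summed to 151.66 to 152.2 with 5SGlcNAc, 155.79 to 156.39 with Thiamet-G and 155.48 to 156.39 with DMSO. The 11 markers of MDA-MB-231 itself separated in the same direction: their sums were 141.6 to 141.92 with 5SGlcNAc, 142.99 to 143.35 with Thiamet-G and 143.06 to 143.23 with DMSO. All 11 differences were below 0, from −0.54 to −0.01, and 2 were called, S100A4 at −0.54 and CAV1 at −0.25. The call of CAV1 was lost without 5SGlcNAc replicate 1, 2 or 3 or Thiamet-G replicate 1 or 3. ESR1, PGR and CDH1 were not called. The luminal calls were 4, 3 and 2 without 5SGlcNAc replicates 1, 2 and 3, and 2, 5 and 2 without Thiamet-G replicates 1, 2 and 3. For fibroblast markers the calls lower were COL5A1, COL6A3 and LUM, of which COL6A3 was lost in each fit without an array except that without 5SGlcNAc replicate 2, and 10 of the 13 measured were below the median gene on every array. The part of other cells in these results was not tested.

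The earlier arrays, none of which entered the 48 h comparison, were read for the same 1070 genes. Each time holds 1 array per treatment, so these are single differences without a test. At 0 h, 44.5% of the calls had the sign of 48 h, against 46.5% of all genes. At 2 h the share was 62.7% against 58.7%, at 8 h 79.3% against 60.7%, and at 24 h 87.0% against 57.0%. The median of the genes called higher was −0.01 at 0 h, 0.14 at 8 h and 0.13 at 24 h, and that of the genes called lower 0.02, −0.12 and −0.27. Levels of the 0 to 24 h arrays are not set against those of 48 h, because the sets were deposited with different numbers of decimals and different medians, and only differences within a time were used.

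**Figure D5:**
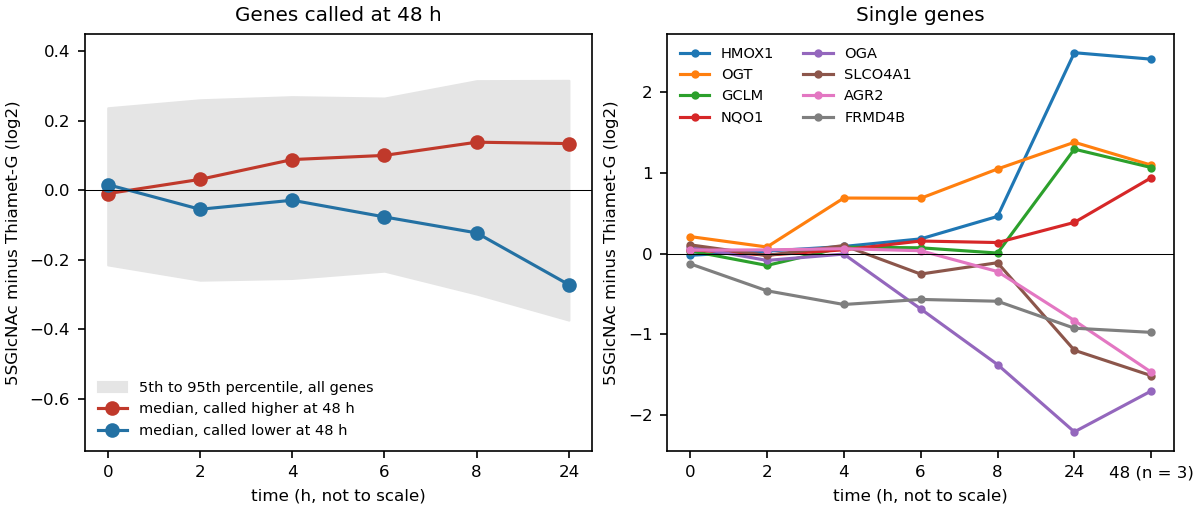
Left, median difference 5SGlcNAc minus Thiamet-G (y axis, log2) at each earlier time (x axis, not to scale, 1 array per treatment) for genes called higher or lower at 48 h, with the 5th to 95th percentile of all genes shaded; right, single genes with the mean of 3 arrays at 48 h. Medians of the called genes start near 0 at 0 h and separate by 24 h, but stay inside the shaded range. FRMD4B lies below 0 at every time, while GCLM reaches 1.29 only at 24 h. The OGT line, above 0.5 from 4 h, is its brightest probe set alone, and the other OGT probe sets had the opposite sign at 48 h.

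The genes differed in when they separated. OGA differed by −0.69 at 6 h, −1.38 at 8 h and −2.21 at 24 h, and by −0.01 at 4 h. HMOX1 differed by 0.03, 0.09, 0.18 and 0.46 at 2, 4, 6 and 8 h and by 2.49 at 24 h. At 24 h the HMOX1 array of 5SGlcNAc read 11.04, that of Thiamet-G 8.55 and that of DMSO 8.73. GCLM differed by 0.01 at 8 h and 1.29 at 24 h. NQO1 differed by 0.14 at 8 h and 0.39 at 24 h, and by 0.94 at 48 h. PCYOX1L, for which Thiamet-G stood apart, went from 0.13 at 4 h to 0.49 at 8 h and 1.11 at 24 h.

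Interferon genes took the other sign at early times. Of the 19 called lower at 48 h, 15 were higher with 5SGlcNAc than with Thiamet-G at 4 h and 4 lower, with a median of 0.18. At 8 h 3 were higher and 16 lower, and at 24 h all 19 were lower with a median of −0.32. IFIT1 differed by 1.06 at 4 h, 0.59 at 6 h, −0.49 at 8 h and −0.27 at 24 h. Its level also moved without inhibitor: the DMSO arrays read 8.12 at 0 h, 8.23 at 2 h, 10.54 at 4 h, 10.17 at 6 h, 9.54 at 8 h and 9.35 at 24 h. At 4 h the 5SGlcNAc array read 10.35 and the Thiamet-G array 9.29. IFIT2 and IFIT3 had the same order of signs between 4 and 24 h, with 0.85 and 0.91 at 4 h and −0.21 and −0.52 at 24 h. With 1 array at each point the size of this swing has no replicate check.

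A fit over 2 to 24 h took the time as a block, so the 5 times stood in for replicates. A difference that grows with time widens its own error there, so the fit favours differences of steady size. In that fit 1615 genes had an unadjusted p under 0.05, and 6 of 11963 (0.0502%) passed, all lower with 5SGlcNAc. They were BCOR, FRMD4B, RIF1, SPRY1, TGFB2 and ZNF551, and none of them passed when any 1 time was left out. BCOR, a corepressor, differed by −0.49 at 2 h and by between −0.40 and −0.59 later, and SPRY1 by −0.71 at 2 h and −0.57 at 24 h. At 0 h these genes differed by 0.14 and 0.10. FRMD4B (mean over 2 to 24 h −0.64, adjusted p = 0.0278) and SPRY1 (−0.55, adjusted p = 0.0269) were also called at 48 h, as were BCOR and TGFB2, while RIF1 and ZNF551 were not (adjusted p = 0.0582 and 0.755). EHF, an epithelial ETS factor, and NDP had the sign of 48 h at all 5 times without passing: EHF averaged −0.57 (adjusted p = 0.088) and NDP −0.56 (adjusted p = 0.182). The 48 h call of EHF (−0.76) was lost without 5SGlcNAc replicate 1 (adjusted p = 0.0548), and that of BCOR (−0.46) was lost in the fits without 5SGlcNAc replicate 1, 2 or 3 or Thiamet-G replicate 1 or 3.

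A direct test of the contrast at 48 h against that over 2 to 24 h called 28 genes (0.234%), so for most genes the sizes could not be told apart with these arrays. The earlier times again stood in for replicates, so a difference that grew between 2 and 24 h widened the error here too. TRIM16 was larger at 48 h by 1.23 and NQO1 by 0.80 (adjusted p = 0.0139 and 0.0109). In the direction of lower levels, IGFBP1 differed further by −0.87, AGR2 by −1.29 and IL6 by −0.78 (adjusted p = 0.0139, 0.0244 and 0.0423). HMOX1 was not among the 28 (adjusted p = 0.134). It differed by 2.49 at 24 h and by 2.41 at 48 h.

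Of the 9 ribosome biogenesis genes called higher at 48 h, 4 were higher and 5 lower at 24 h, with a median of −0.02. BYSL and WDR3 were among the higher ones, at 0.10 and 0.20. Of the genes called higher at 48 h in other lists, 5 of 5 for haem and iron, 5 of 6 for glutathione and cystine and 4 of 5 for conjugation and efflux were higher at 24 h, with medians of 0.26, 0.40 and 0.20. EPHX1, an epoxide hydrolase of the conjugation list, was at −0.27. These are single arrays, and the lists were not tested against each other. NOP16, a nucleolar protein, went from −0.08 at 24 h to 0.31 at 48 h, and the difference between 48 h and 2 to 24 h passed (0.36, adjusted p = 0.0423). Its 48 h call was lost without 5SGlcNAc replicate 1.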

How the data were processed

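Total RNA of 27 samples was measured on Affymetrix arrays. The authors deposited log2 expression values per probe set, made by RMA per the submitters' processing notes, with no software version given in the sources used here. The 48 h arrays carry 2 decimals and the 0 to 24 h arrays 6, so levels were never set across these sets. RMA and its quantile step bring the distributions of the arrays close together, so a shift shared by all genes would not be seen. Small differences between arrays remained, with medians of 7.68 to 7.76 at 48 h. The position of DMSO depended on them: among all genes it lay above both arms at 804 as deposited and at 353 after median centring. Depth has no meaning for arrays, and 3 arrays per group limit the precision.

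Of 22277 probe sets, 62 were controls, 19064 had 1 gene in the platform annotation, 1043 had several and 2108 had none. Current symbols came from the RefSeq gene table (GRCh38.p14) by Entrez number, with 19052 matches, and the brightest probe set over the 9 arrays of 48 h stood for each of 11963 genes. No dim filter was used. The main comparison was fitted in R 4.3.3 with limma 3.58.1 (lmFit, eBayes, two-sided) on the 6 inhibitor arrays, with Benjamini-Hochberg adjustment over all genes at 0.05. DMSO contrasts came from a fit of the 9 arrays, the 2 to 24 h contrast from 10 arrays with time as a block, and its difference from 48 h from 16 arrays. The fits were tested on simulated data. A direction is 5SGlcNAc minus Thiamet-G. Alternatives were the 9-array fit, median centring, quantile normalization, a minimum level at the 40th percentile, averaging of probe sets, no cross-hybridising (_x_at) sets, trended robust moderation, a replicate block and leaving out each array.

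Genes were named by rule: OGT, OGA, KEAP1 and NFE2L2, the 12 largest called rises and falls, up to 5 called genes per list, 12 with DMSO between the arms, 6 called in neither DMSO contrast, and 6 with 1 sign at all 5 earlier times. AKR7A2, CBR3, BST2, IL11, SERPINE2, BCOR, RIF1 and ZNF551 fell outside this rule and were chosen after their values were seen, as were the S100 genes other than S100A4, and PTGES, and VIM, ESR1, PGR and CDH1 are named as markers. Members and lists were chosen with earlier results of these data known.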

Additional observations from a re-analysis of the deposited data

Results flagged for a closer look

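In 7 of 31 genes examined, 1 of the 5 differences between 2 and 24 h stood apart from the others by more than the critical value of 0.71 for a gap over the range, and in each it was the 24 h value. Chance alone marks about 1 group in 20 where the groups are independent and not selected. The 31 genes were selected, mostly by their 48 h differences, and share the same 24 h arrays. The 7 of 31 is therefore not to be set against that rate, and the share over all genes was not computed. The 24 h differences were 2.49 for HMOX1, 1.29 for GCLM, 0.72 for TRIM16 and 0.69 for PIR. They were −1.20 for SLCO4A1, −0.96 for PAPPA and −0.87 for NNMT. Each rests on 1 array per treatment.

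For 15 of 237 named genes the contrast at 48 h differed from that over 2 to 24 h by limma's test of the difference. The contrast at 48 h exceeded the earlier one by 1.23 for TRIM16, 0.80 for NQO1, 0.49 for ME1 and 0.36 for NOP16. It was lower than the earlier one, with differences of −1.29 for AGR2, −1.16 for NNMT, −1.02 for APOBEC3G, −0.87 for IGFBP1 and −0.78 for IL6. Smaller differences were −0.66 for APOBEC3B, −0.63 for CXCL1, −0.53 for ETV1, −0.52 for S100A4, −0.47 for LOX and −0.46 for CA12. The 48 h values carry another number of decimals and other medians than the earlier ones, so time and a difference between these sets cannot be told apart.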

How the results depend on the processing

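The count of 1070 calls was 1634 (822 higher) in the fit of 9 arrays, 1826 (942 higher, 884 lower) without dim genes, 1822 (890 higher, 932 lower) with trended robust moderation and 619 (250 higher, 369 lower) with the replicate block. Leaving out 1 array gave 290 to 1339 calls, 115 to 616 higher and 175 to 723 lower. The labels do not say whether the replicate numbers pair the arrays. Deviations of same-numbered arrays correlated at −0.087, 0.103 and 0.172, and those of differently numbered arrays at −0.192 to 0.075. With 3 arrays per group these values cannot settle the pairing, nor whether a call lost under the block is a weaker effect. The 6 calls over 2 to 24 h fell to 0 without 2, 4, 6, 8 or 24 h, where limma left 1415, 1365, 1172, 1149 and 2033 genes at an unadjusted p under 0.05. GDF15 turned from −0.46 to 0.16 without the _x_at probe sets and OGT from 1.10 to −0.49 with the mean of probe sets. The GDF15 probe set used then was dim, with means of 4.87 for 5SGlcNAc and 4.71 for Thiamet-G, against 8.20 and 8.66 on the _x_at set. The cause of either turn was not tested. Of 221 named calls, 97 passed in all 6 fits without an array and 91 under every alternative that measured them. No other named call changed direction under the alternatives run. Signal over background was not measured here, so dim genes carry no detection call.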

Other observations

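S100 genes, which encode small calcium-binding proteins, were looked up as a family after their values had been seen, although S100A4 was also a member of lists. Of 17 measured, 5 were called lower with 5SGlcNAc and 0 higher, beside 4.78% and 4.16% of all genes. S100A4 read 12.34, 12.39 and 12.50 with 5SGlcNAc, 12.94, 12.98 and 12.93 with Thiamet-G and 12.94, 12.95 and 12.95 with DMSO. S100A2 read 9.80, 9.96 and 10.10 against 10.52, 10.51 and 10.47 (−0.55, adjusted p = 0.00824 by limma). S100A3, S100P and S100A13 gave −0.58, −0.54 and −0.23. S100A3 lost its call without 5SGlcNAc replicate 2 or Thiamet-G replicate 1, S100P without 5SGlcNAc replicate 1 or 3, and S100A13 without any 1 array. Over 2 to 24 h the mean differences of S100A2, S100A3 and S100A4 were −0.01, 0.02 and −0.02.

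PTGES, the prostaglandin E synthase, was also picked after its values were seen. It read 9.16, 9.34 and 9.32 with 5SGlcNAc, 10.20, 10.19 and 10.28 with Thiamet-G and 9.95, 10.01 and 9.93 with DMSO, so that the DMSO arrays lay between the arms (−0.95, adjusted p = 0.000807 by limma).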
